A study of Mus musculus with 8 samples.

Results

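The AP-2 transcription factors and the KCTD proteins that hold them in check were followed here as 7 genes: the 5 AP-2 paralogs Tfap2a, Tfap2b, Tfap2c, Tfap2d and Tfap2e, and the repressors Kctd1 and Kctd15. They were chosen by name, as the targeted gene, its paralogs and the KCTD proteins that bind them, and each had 1 of the 37583 gene rows in the files. The data are RNA-seq gene counts from whole kidneys of 8 mice, 1 library each. The 4 libraries labelled knockout carry the genotype b-actinCreERT2+TFAP2Bfl/fl: both Tfap2b alleles are flanked by loxP sites, and a Cre recombinase fused to a modified oestrogen receptor domain, driven by a beta-actin promoter, can remove the flanked part in most cell types once its ligand is given. The 4 libraries labelled wildtype come from control littermates with the genotype WT. The age of the mice, the ligand treatment, the deleted exons and whether the controls carry floxed alleles or Cre are details the sources used here do not give. Nothing in the labels describes the mice beyond this, so the p-values measure the spread between these libraries.

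AP-2 factors bind DNA as dimers at GC-rich palindromic sites through a conserved helix-span-helix region, and the family acts in neural crest, skin, limb and kidney development. AP-2 beta, the product of Tfap2b, marks the distal nephron. KCTD1 and KCTD15 are close relatives with a BTB domain, and both bind the activation domain of AP-2 factors and repress it. In people, mutations of TFAP2B cause Char syndrome, those of TFAP2A branchio-oculo-facial syndrome, and those of KCTD1 scalp-ear-nipple syndrome.

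The start-site windows of the members are shown because the results concern the amount of these transcripts, and because AP-2 factors have a known palindromic consensus that can be looked for in them. RefSeq windows on build GRCm38.p6, 250 bases before to 50 after an annotated start, matched 5 of the 7 members (not Kctd1 and Tfap2c), with 10 windows. The motif searched was GCCNNNGGC, which reads the same on both strands, and capitals mark each match. The single Tfap2b window, chr1:19211804-19212103 on the plus strand, had no match and 48.3% G and C. The Tfap2a window shown, chr13:40733746-40734045 on the minus strand, had no match and 61.0% G and C, and the other Tfap2a window had none either. The Kctd15 window shown, chr7:34652883-34653182 on the minus strand, had 3 matches, which began 228, 213 and 200 bases before the start, and 54.0% G and C.
Tfap2b: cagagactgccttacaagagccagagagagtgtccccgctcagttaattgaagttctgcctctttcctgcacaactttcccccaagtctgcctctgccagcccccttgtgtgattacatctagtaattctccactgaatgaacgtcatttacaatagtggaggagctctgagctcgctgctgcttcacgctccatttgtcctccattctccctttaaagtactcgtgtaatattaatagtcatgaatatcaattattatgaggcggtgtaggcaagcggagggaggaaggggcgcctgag
Tfap2a: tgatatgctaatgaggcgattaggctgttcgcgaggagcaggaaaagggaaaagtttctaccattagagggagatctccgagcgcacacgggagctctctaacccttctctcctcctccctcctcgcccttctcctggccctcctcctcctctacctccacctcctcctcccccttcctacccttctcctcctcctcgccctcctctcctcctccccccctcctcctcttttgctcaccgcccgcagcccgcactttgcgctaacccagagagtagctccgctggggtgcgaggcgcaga
Kctd15: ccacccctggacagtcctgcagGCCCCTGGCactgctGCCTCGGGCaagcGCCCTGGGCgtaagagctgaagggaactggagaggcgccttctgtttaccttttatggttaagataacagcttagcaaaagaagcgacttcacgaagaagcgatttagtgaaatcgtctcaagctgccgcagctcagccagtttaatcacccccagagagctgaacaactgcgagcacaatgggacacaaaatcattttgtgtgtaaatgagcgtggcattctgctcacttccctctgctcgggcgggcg

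Of all 32851 windows, 16.6% held the motif at least 1 time and 0.444% at least 3 times. Among the 5 members searched, matches were found in Kctd15 alone. A second Kctd15 window had 1 match, 167 bases before its start, and the third had none. The 3 windows of Tfap2d and the window of Tfap2e had no match. A match is a description of these letters and not a measured binding site, and an absent match says only that the letters are not in the window.

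Reads of one AP-2 paralog could in principle be counted for another, so the annotated transcripts of GENCODE M21 were compared. No stretch of 50 bases was shared between any of the 7 members. Tfap2a shared 10.2% of its 50-base stretches with transcripts of other genes, Tfap2d 6.41%, Kctd15 1.30%, Kctd1 0.891% and Tfap2b 0.0316%, while Tfap2c and Tfap2e shared 0. These partners include antisense genes: Gm12781 overlaps the Kctd15 locus, and the files hold 51 counts for it in the knockout and 37 in the wildtype libraries. The kit marks strand, but the counting was unstranded by the name of the deposited data. Where Tfap2a, Tfap2d, Kctd1 or Kctd15 overlaps an antisense gene, reads of the pair therefore cannot be told apart. Tfap2b and the 2 remaining paralogs have no overlapping gene in that annotation.

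The knockout libraries held 13435113 to 17930347 gene counts and the wildtype libraries 13783857 to 17741722, and 15228 genes passed the filter on low counts and were tested with edgeR. Levels are given as CPM, counts relative to a common library size after scaling with TMM factors. The tissue label was checked against markers: all 8 proximal tubule, 6 podocyte, 10 distal convoluted tubule and 11 thick ascending limb markers had reads and were tested. Some libraries stood apart. Knockout 4 held 236.2 CPM summed over 6 adrenal cortex genes, against 6.19 to 8.78 CPM in the other 7 libraries, and Cyp11b2 and Cyp21a1 were at 0 in all 4 wildtype libraries. A score of the circadian clock, taken as 9 output genes less 3 activators in mean log2 CPM, ran from -1.44 to 0.91 in the knockout and from 0.19 to 3.36 in the wildtype libraries. The score thus went largely with the label, so fits with it as a term cannot fully tell score and label apart.

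Of the 7 members, 4 were tested, and 3 of these passed an adjusted p of 0.05: Tfap2b and Tfap2a rose and Kctd1 fell in the libraries labelled knockout, while Kctd15 did not pass. Of all genes tested, 11.9% passed, 6.23% upward and 5.70% downward. The groups did not overlap for the same 3 members; this held for 18.5% of all genes, 9.42% with the knockout above and 9.05% with it below. The other 3 members, Tfap2c, Tfap2d and Tfap2e, held at most 3 counts in any library. Without knockout 4, the library with adrenal transcripts, Tfap2b, Tfap2a and Kctd1 had log2 fold changes of 1.26, 0.87 and -0.35 and passed (edgeR adjusted p = 4.35e-05, 0.01 and 0.0376).

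**Figure D1:**
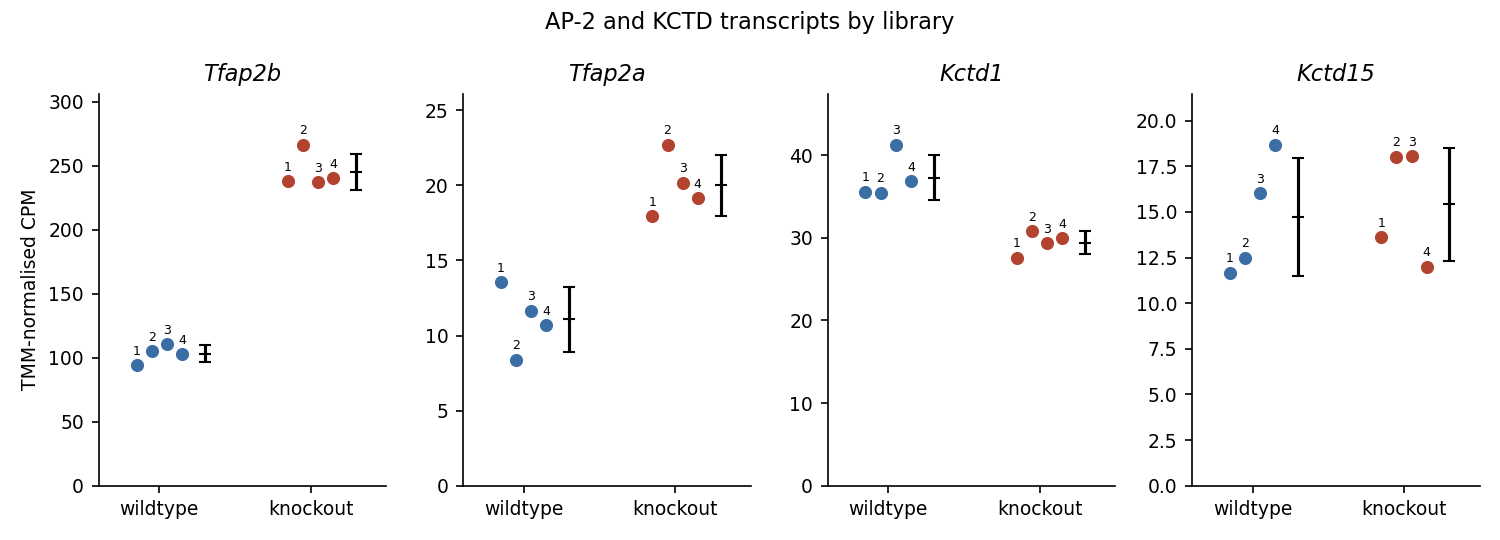
TMM-normalised CPM of the 4 members with measurable levels in each library. Points are libraries with their replicate number, and bars are the mean and SD of 4 libraries; Tfap2b and Tfap2a lie higher in every knockout than in any wildtype library, Kctd1 lies lower, and the Kctd15 groups overlap.

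Tfap2b, the targeted gene, had 4073, 4553, 4239 and 3328 counts in the libraries labelled knockout, or 238.1, 266.5, 237.0 and 240.3 CPM. It had 1252, 1436, 1899 and 1694 counts in those labelled wildtype, or 94.3, 104.9, 110.5 and 102.8 CPM. The lowest knockout library thus held over double the level of the highest wildtype library. The log2 fold change was 1.25 ± 0.074 (SE; 95% interval 1.09 to 1.41; edgeR adjusted p = 4.18e-06), a 2.38-fold higher level, and the exact two-sided permutation p was 0.0286, the smallest that 70 assignments allow. Among the 15228 genes, Tfap2b ranked 10 by p-value and 415 by the size of its fold change. The spread was small in both groups, with a coefficient of variation of 5.73% in the knockout and 6.53% in the wildtype libraries. A count over the whole gene includes exons outside the flanked part and so does not check the deletion. Higher and lower below always mean the knockout label relative to the wildtype label. Tfap2b passed in all 18 other settings, with log2 fold changes of 1.21 to 1.36.

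Tfap2a encodes AP-2 alpha, the paralog best known from neural crest and skin. Its counts were 307, 388, 361 and 265 in the knockout libraries, or 17.9, 22.7, 20.2 and 19.1 CPM. In the wildtype libraries they were 180, 115, 200 and 176, or 13.6, 8.40, 11.6 and 10.7 CPM. The groups did not overlap, and wildtype 2 was the lowest library. The log2 fold change of Tfap2a was 0.85 ± 0.14 (SE; 95% interval 0.54 to 1.16; edgeR adjusted p = 0.00318), and the gene ranked 364 by p-value. With the clock score as a term, the log2 fold change was 0.67 ± 0.21 with edgeR adjusted p = 0.098. Tfap2a passed in the other 17 settings.

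Markers of a cell type that expresses AP-2 factors were set beside this. Of 7 urothelium markers, 2 rose, Upk3a from 6.84 ± 1.18 to 12.2 ± 1.09 CPM (SD, n = 4 each; edgeR adjusted p = 0.00369) and Krt20 from 0.972 ± 0.203 to 2.98 ± 0.606 CPM (adjusted p = 0.00242), and none fell. The share that passed was 28.6%, against 11.9% of all genes, 6.23% upward. Upk3b, at 6.14 CPM in the knockout and 8.70 CPM in the wildtype libraries, did not pass. The summed level of the urothelium markers was 43.2 to 55.0 CPM in the knockout and 35.2 to 52.1 CPM in the wildtype libraries. None of the 7 was at 0 throughout. Wildtype 1, which had the highest Tfap2a level of its group, also had the highest urothelium sum of its group, and wildtype 2 had the lowest of both. The knockout libraries showed no such match: Tfap2a was highest in knockout 2 and lowest in knockout 1, and the urothelium sum was highest in knockout 4 and lowest in knockout 3. Their part in the Tfap2a result was not tested. Of 6 epidermis markers, 1 passed the count filter, Krt10, at 10.1 and 10.4 CPM with a log2 fold change of -0.04 ± 0.11. Of 7 sympathetic and chromaffin markers, 1 passed the filter, Prph, and the sum of all 7 was at most 1.64 CPM in any library.

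The other three AP-2 paralogs were near the floor of the assay. Tfap2c, known from trophoblast and mammary gland, had 2 counts over the 4 knockout libraries and 2 over the wildtype libraries (95% Poisson interval 0.242 to 7.23 for each). Tfap2d, mainly a midbrain gene, had 0 and 1. Tfap2e, known from the olfactory system, had 7 in the knockout (2.81 to 14.4) and 3 in the wildtype libraries (0.619 to 8.77). Tfap2e had 1, 2, 3 and 1 counts in the knockout and 0, 2, 0 and 1 in the wildtype libraries, with an exact permutation p of 0.286 for its CPM. A count of 0 in 1 library allows up to 3 counts as a one-sided limit, or 0.168 to 0.226 CPM on the TMM scale. Neither a difference between the groups nor its absence was detectable for these 3 genes, and the intervals cover counting error only.

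The sum over all 5 AP-2 genes was 256.2, 289.3, 257.4 and 259.6 CPM in the knockout libraries and 107.9, 113.7, 122.2 and 113.5 CPM in the wildtype libraries. The means, 265.6 ± 15.9 and 114.3 ± 5.90 CPM (SD, n = 4 each), stood 2.32-fold apart (exact two-sided permutation p = 0.0286, 0.0477 adjusted). The adjustment covered 5 library values, this sum and the 4 ratios below. It left out the permutation p-values of single members, which were obtained the same way. Nearly all of the sum is Tfap2b, whose groups did not overlap, so the p of the sum is not a separate result.

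Kctd1 moved against the factors it binds. It had 472, 526, 525 and 415 counts in the knockout libraries, or 27.6, 30.8, 29.4 and 30.0 CPM. In the wildtype libraries it had 472, 485, 709 and 607 counts, or 35.6, 35.4, 41.3 and 36.8 CPM. The highest knockout library lay below the lowest wildtype library. The change was small: Kctd1 fell by 0.34 ± 0.077 (SE) on the log2 scale (95% interval -0.51 to -0.17; edgeR adjusted p = 0.0157; exact permutation p = 0.0286), to 0.789 of the wildtype level. It ranked 923 by p-value and 3871 by the size of its change. Kctd1 passed in 14 of 18 other settings and was negative in each. Of the 4 in which it did not pass, 1 used library totals in place of TMM factors (-0.24, edgeR adjusted p = 0.0737), where the median over all genes moved from 0.00 to 0.11. The others include the clock score as a term (-0.28, adjusted p = 0.216) and the fit without knockout 1 and 4 (-0.31, adjusted p = 0.0993).

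Kctd15, the closest relative of Kctd1, did not pass the test. It had 13.6, 18.0, 18.1 and 12.0 CPM in the knockout and 11.7, 12.5, 16.0 and 18.7 CPM in the wildtype libraries, from 155 to 323 counts. Each group held both low and high libraries, with a coefficient of variation of 20.1% and 22.1%, against 4.61% and 7.35% for Kctd1. The log2 fold change was 0.07 ± 0.18 (SE; edgeR adjusted p = 0.85). Its 95% interval, -0.33 to 0.46, overlaps that of Kctd1, -0.51 to -0.17, but stops just above the Kctd1 estimate of -0.34. In the ratio of Kctd1 to Kctd15 within a library, the difference of -0.41 log2 units between groups did not pass (0.95 ± 0.28 against 1.36 ± 0.27, SD, n = 4 each; exact permutation p = 0.0857, 0.0857 adjusted). An unequal change of the 2 repressors is therefore not shown.

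Ratios within a library do not depend on the scaling. The log2 ratio of Kctd1 to Tfap2b counts, with 1 count added to each, was -3.11, -3.11, -3.01 and -3.00 in the knockout and -1.41, -1.56, -1.42 and -1.48 in the wildtype libraries. Both groups were tight and lay far apart: the mean ratio fell by 1.59 log2 units, to 0.332 of the wildtype ratio (exact two-sided permutation p = 0.0286, 0.0477 adjusted). The log2 ratio of Kctd15 to Tfap2b was -4.01 ± 0.27 in the knockout and -2.83 ± 0.28 in the wildtype libraries (SD, n = 4 each), and fell by 1.18 without overlap (exact permutation p = 0.0286, 0.0477 adjusted). These ratios carry the Tfap2b difference described above and are not independent of it.

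**Figure D2:**
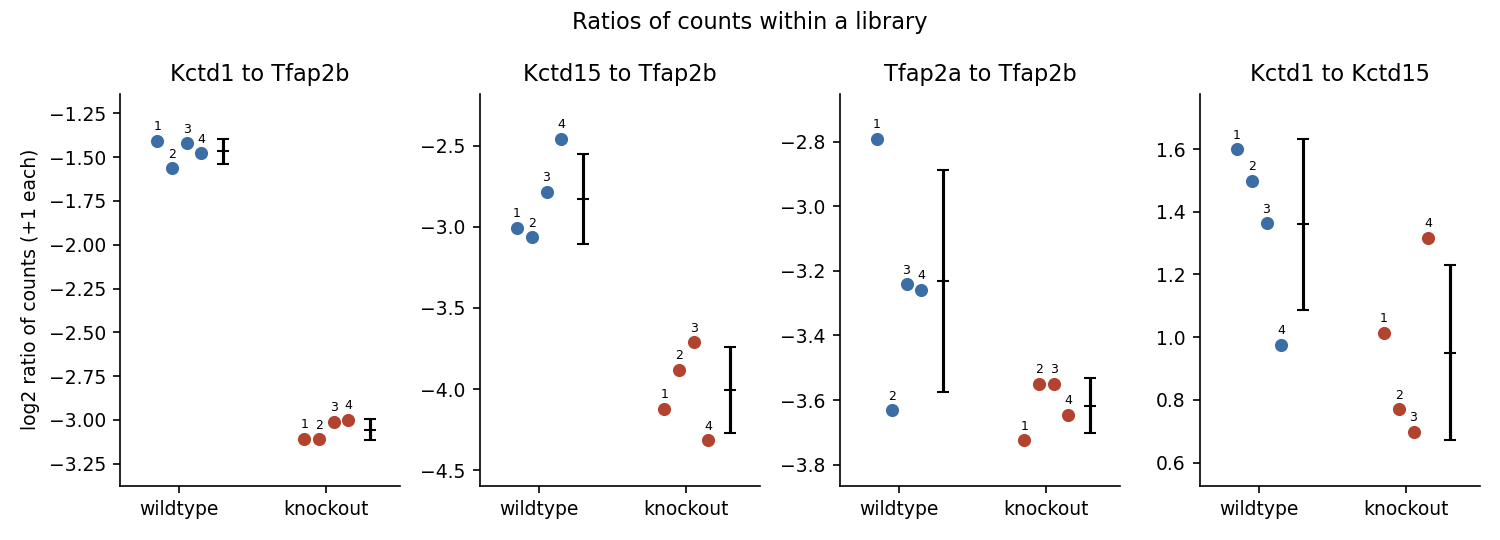
Log2 ratios of counts (1 count added to each gene) within each library, for the 2 repressors and Tfap2a against Tfap2b and for Kctd1 against Kctd15. Points are libraries with their replicate number, bars are the mean and SD of 4 libraries, and each panel has its own axis; the first 2 ratios separate the groups, while in the other 2 the groups overlap.

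Whether Tfap2a rose by a smaller factor than Tfap2b was asked of the same kind of ratio. It was -3.73, -3.55, -3.55 and -3.65 in the knockout and -2.79, -3.63, -3.24 and -3.26 in the wildtype libraries, where wildtype 2 lay among the knockout values. The difference of -0.39 log2 units did not pass (exact two-sided permutation p = 0.0857, 0.0857 adjusted). Without wildtype 2 it was -0.52 (exact permutation p = 0.0286), and without wildtype 1 it was -0.24 (p = 0.114), so the answer rests on single wildtype libraries.

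Compared per length, with exon lengths from GENCODE M21 on GRCm38 as a guide, Tfap2b was the most abundant member in every library. Its level was 38.7 ± 2.22 CPM per kilobase in the knockout and 16.3 ± 1.06 in the wildtype libraries (SD, n = 4 each). In the wildtype libraries Kctd1 came next, at 4.71 ± 0.346 CPM per kilobase, then Kctd15 at 3.47 ± 0.766 and Tfap2a at 2.26 ± 0.437. Kctd1 did not overlap with Kctd15 there, while Kctd15 and Tfap2a did overlap. In the knockout libraries the levels of Tfap2a, Kctd1 and Kctd15 were 4.08 ± 0.414, 3.72 ± 0.171 and 3.64 ± 0.731 CPM per kilobase, and their ranges overlapped. Tfap2c, Tfap2d and Tfap2e were at most 0.0498 CPM per kilobase in either group's mean. The authors' counts were made on mm9 with an annotation not given in the sources used here, so these lengths may differ from theirs.

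**Figure D3:**
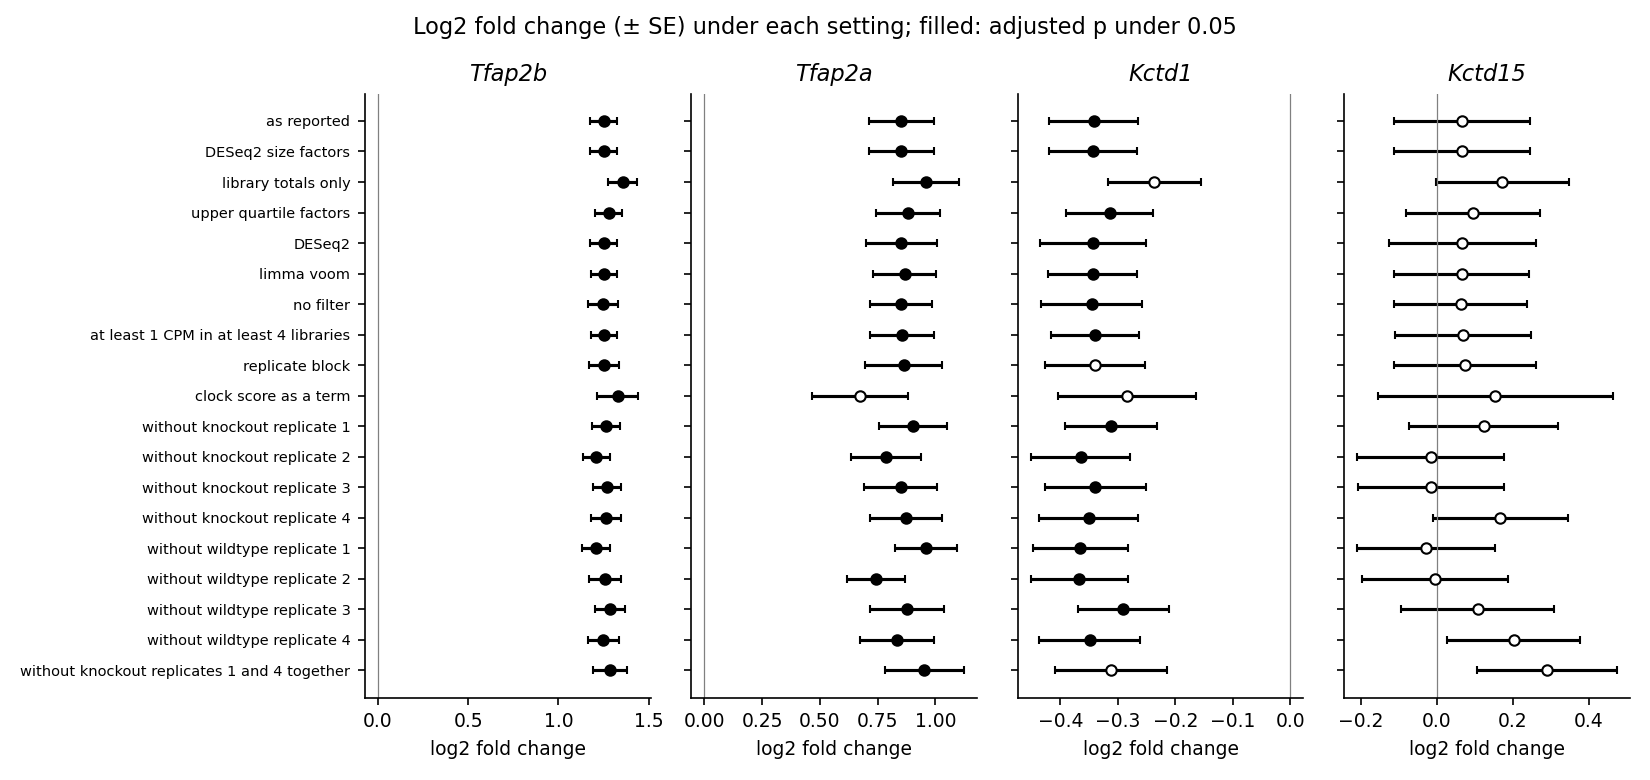
Log2 fold change (± SE) of the 4 tested members as reported and under the 18 other settings; filled points have an adjusted p under 0.05, and each panel has its own axis. Tfap2b is filled throughout, Tfap2a is open with the clock score as a term, Kctd1 is open in 4 settings, and Kctd15 is open throughout and lies on both sides of 0.

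Coactivators and other partners of AP-2 factors were described from a list of 14, all tested. Of these, 2 rose, none fell and 12 did not pass, 14.3% against 11.9% of all genes, with a median log2 fold change of 0.13 against 0.00. At an unadjusted p under 0.05, edgeR had 4 rising and 0 falling, and DESeq2 and limma voom each called 2 rising and 0 falling. The share of all genes at an unadjusted p under 0.05 was not counted, here or for the lists below. Such unadjusted counts therefore give the direction within a list and do not show an excess over other genes. Myc, a growth regulator whose product binds AP-2, rose from 8.70 ± 1.41 to 14.0 ± 2.55 CPM (SD, n = 4 each; edgeR adjusted p = 0.0174). Trp53, which encodes p53, rose from 31.7 ± 2.51 to 39.6 ± 2.12 CPM (adjusted p = 0.0229). Cited2, an AP-2 coactivator, had 121 ± 11.7 and 143 ± 14.9 CPM (adjusted p = 0.118), and Kdm5b, a histone demethylase, 42.8 ± 3.36 and 49.0 ± 2.23 CPM (adjusted p = 0.117). The count rests on few libraries: it was 1 without knockout 4, wildtype 3 or wildtype 4, 0 when the clock score was a term and 4 with library totals only.

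The rest of the KCTD family, which mostly encodes adaptors of ubiquitin ligases or subunits of receptor complexes, was taken as a comparison for Kctd1. Of 22 entries, 21 had a row and 18 were tested, and edgeR called none, against 11.9% of all genes. At an unadjusted p under 0.05 there was 1, Kctd13, at 10.5 ± 0.824 and 12.7 ± 0.917 CPM (SD, n = 4 each; edgeR adjusted p = 0.125), and DESeq2 and limma voom each called 0. The median log2 fold change was 0.03, and all 18 lay between -0.21 and 0.27. The change of Kctd1, -0.34 ± 0.077 (SE), lay below each of the 18. The nearest was Kctd12b, at -0.21 ± 0.14, and a difference between Kctd1 and these relatives was not tested.

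Of 18 genes reported as AP-2 targets in various tissues, 10 passed, 55.6% against 11.9% of all genes, but in both directions: 4 rose and 6 fell, and the median log2 fold change was 0.08. Cdkn1a, a cell cycle inhibitor, rose from 10.9 ± 2.48 to 49.2 ± 16.0 CPM (SD, n = 4 each; edgeR adjusted p = 0.00173). Mmp2, a matrix protease, rose by 1.27 ± 0.19 (SE) on the log2 scale (adjusted p = 0.00245), and Krt18, a simple epithelial keratin, from 37.8 ± 6.91 to 60.7 ± 5.97 CPM (adjusted p = 0.00535). Esr1, the oestrogen receptor, had 57.2, 72.2, 55.4 and 48.6 CPM in the knockout and 16.9, 20.7, 23.5 and 12.4 CPM in the wildtype libraries, a log2 fold change of 1.67 ± 0.19 (SE; adjusted p = 0.000984). The Cre fusion contains part of an oestrogen receptor, and reads of it and of the native gene cannot be told apart here.

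The 6 that fell were singled out after their values were seen. Vegfa, an endothelial growth factor, went from 352 ± 15.1 to 275 ± 6.73 CPM (SD, n = 4 each), Igfbp5, an IGF-binding protein, from 718 ± 117 to 461 ± 45.2, and Erbb2, a receptor tyrosine kinase, from 132 ± 7.30 to 104 ± 10.0. Bcl2, Sod2 and Tgm1 fell by 0.44 ± 0.097, 0.29 ± 0.078 and 0.84 ± 0.22 (SE) on the log2 scale. Of the listed targets, 3 fell without knockout 2, knockout 4, wildtype 3 or wildtype 4, each left out alone. In the fit that included the clock score, 5 rose and 0 fell, and without knockout 1 and 4, 3 rose and 3 fell. The list was drawn up from knowledge of other tissues, but with earlier results of these data known. The 55.6% that passed is therefore a description and not a test. The list does not say which genes AP-2 beta binds in kidney.

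**Figure D4:**
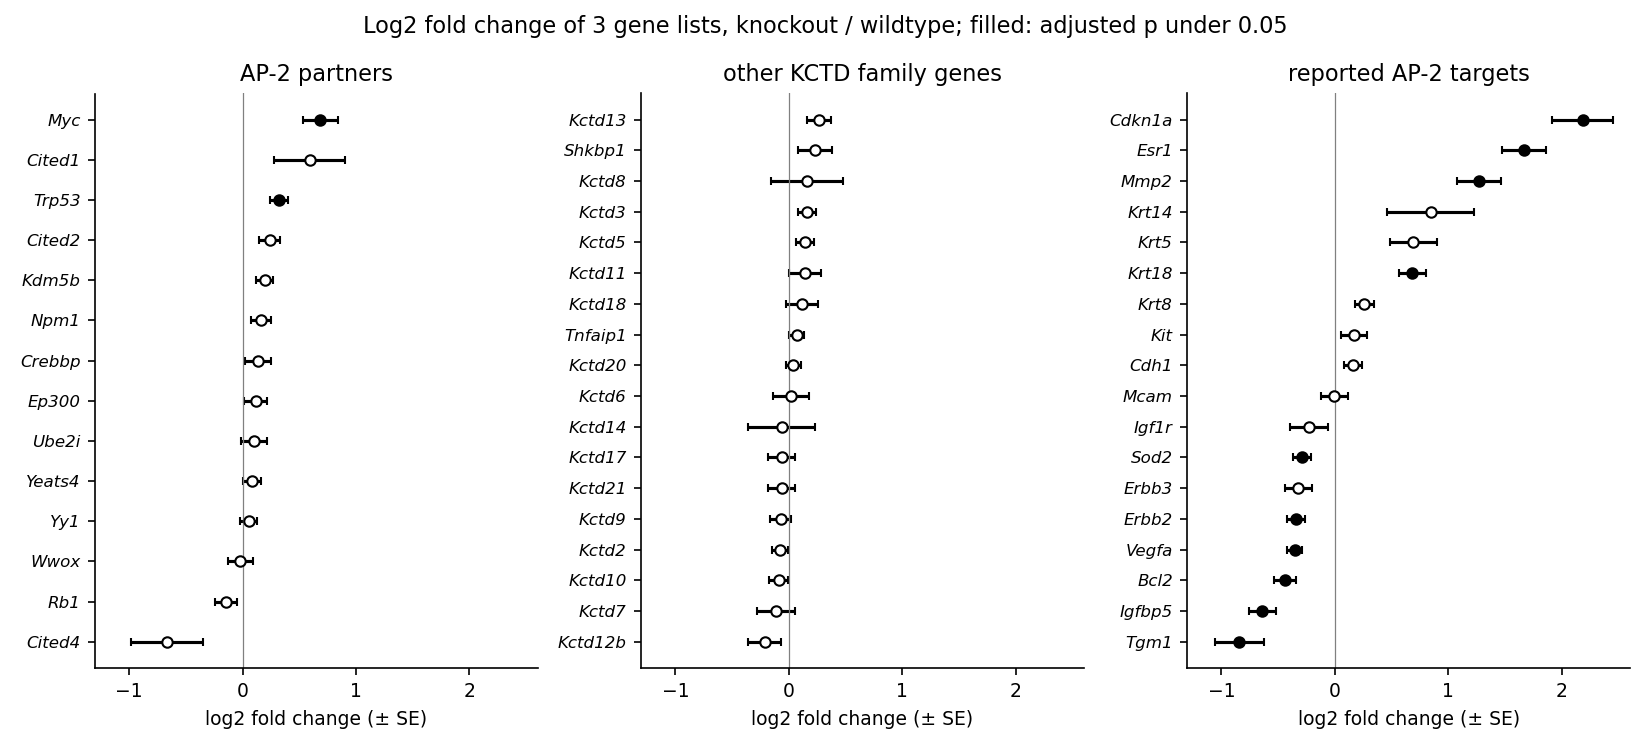
Log2 fold change (± SE, knockout over wildtype) of each tested gene in the lists of AP-2 partners (14), other KCTD family genes (18) and reported AP-2 targets (18); filled points have an edgeR adjusted p under 0.05. The targets spread to both sides, from -0.84 for Tgm1 to 2.19 for Cdkn1a, while the other KCTD genes stay near 0.

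The start-site windows of these lists were searched for GCCNNNGGC in the same way. Of 27025 genes with a window, 18.5% held the motif in at least 1 window. It was present in 6 of 15 reported targets, 6 of 15 other KCTD genes and 2 of 9 partners. Of 9 distal convoluted tubule markers with a window, 6 held it: Slc12a3, Pvalb, Trpm6, Kcnj10, Kcnj16 and Wnk4, with 2 copies in Wnk4. These names were given after the search, and this list had the highest share of the 18 lists searched. The motif was present in 2 of 8 thick ascending limb, 0 of 5 connecting tubule, 2 of 8 principal cell and 1 of 6 intercalated cell markers. The windows differ in base composition, which moves the share of a GC-rich motif: the median G and C content was 60.7% for the targets, 61.0% for the other KCTD genes and 60.3% for the distal convoluted tubule markers, against 52.7% for all genes. The part of base composition in these shares was not tested.

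Markers of several nephron segments changed as well. In whole kidney, a change in cell number and in RNA per cell therefore cannot be told apart for any member. Of 10 distal convoluted tubule markers, 8 fell and 0 rose, with a median log2 fold change of -0.66, and of 11 thick ascending limb markers 7 fell and 0 rose, with a median of -0.58. At an unadjusted p under 0.05, edgeR had 0 rising in the first list and 1 in the second, and DESeq2 called 0 and 1. Of 9 tested principal cell markers 7 rose, and of 10 intercalated cell markers 7 rose, with medians of 0.57 and 0.93. No marker of these 2 lists passed downward with edgeR; at an unadjusted p under 0.05, 1 principal cell marker was lower, Aqp4, at 65.7 ± 5.44 CPM in the knockout and 172 ± 102 CPM in the wildtype libraries (SD, n = 4 each; edgeR adjusted p = 0.067), and DESeq2 called 1 principal cell marker falling. Of 8 proximal tubule markers 3 fell, of 6 podocyte markers 2 and of 6 endothelial markers 2, with medians of -0.44, -0.31 and -0.35, and none rose; at an unadjusted p under 0.05, 0, 1 and 0 were higher. In the fit that included the clock score, 5 distal convoluted tubule markers fell and 2 principal cell markers rose. The connecting tubule list was mixed: of 6 markers, 1 rose and 2 fell, with a median of 0.19. At an unadjusted p under 0.05, edgeR had 2 rising and 2 falling there. Tfap2b, at 1.25, thus lay above the median of each distal segment list. Kctd1, at -0.34, lay above the distal convoluted tubule and thick ascending limb medians and below those of connecting tubule, principal cells and intercalated cells. It lay near the medians of the proximal tubule, podocyte and endothelial lists. Macrophage markers, of which 6 of 8 rose and none was at 0 throughout, summed to 542 to 921.8 CPM in the knockout and 321 to 484.3 CPM in the wildtype libraries. Their part in the members' results was not tested.

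Genes with the most similar profile to each member over the 8 libraries were found by Pearson correlation of log2 CPM, as a description without a test. The candidates were 12408 tested genes with a mean log2 CPM of at least 1. Genes named only as a predicted model, a numbered clone or an identifier were left out. The libraries share their group, so a gene that differs between groups scores high for that alone. For Tfap2b they were Mrc1, a macrophage receptor (r = 0.994), Stk32a (0.993), Evi5l (0.992) and Fcrls (0.992). For Tfap2a they were Rabep2 (0.986), Tmem141 (0.972), Serinc3 (0.972) and Nop56 (0.972). For Kctd1 they were Scap, the SREBP escort protein (0.977), Adrb1, a beta-adrenergic receptor (0.976), Taco1 (0.973) and Zbtb44 (0.968). For Kctd15 they were Nedd4l, a ubiquitin ligase that acts on the epithelial sodium channel (0.961), Foxq1 (0.942), Cwf19l1 (0.938) and Cish, a cytokine signalling inhibitor (0.933). The 4 genes closest to Kctd15 had log2 fold changes of -0.12 to 0.08 and adjusted p-values of 0.676 to 0.95 (edgeR), so that, as for Kctd15 itself, none passed the test between the groups. With the group means removed, r was 0.461 to 0.636 for the genes of Tfap2b and 0.811 to 0.887 for those of Kctd1. It was 0.824 to 0.966 for those of Tfap2a and 0.932 to 0.969 for those of Kctd15. These genes were picked for their high r over the same libraries, so these values are not separate support.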

How the data were processed

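Whole-kidney RNA of 8 mice was profiled. Per the labels' protocols, directional libraries were made from 200 ng of RNA with 15 PCR cycles. The authors deposited raw read counts per gene, 1 file per library; the submitters' processing notes name STAR, HTSeq, edgeR and mm9, without versions or an annotation. The 5 summary rows were left out; 63.8% to 69.1% of records were assigned to a gene. Symbols came from a gene name table (32860 identifiers matched).

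The tool for the comparison was edgeR 4.0.16 in R 4.3.3 (filterByExpr, TMM, robust quasi-likelihood F test), two-sided, Benjamini-Hochberg adjusted over all 15228 genes. SE is the log2 fold change over the root of F. Single library values and the CPM of single members used exact permutation over 70 assignments, with adjustment over the 5 library values only. Log2 CPM used a prior count of 2. Other settings were other scalings, DESeq2 1.42.0, limma 3.58.1 voom, other filters and thresholds, a replicate block, the clock score as a term, and libraries left out. Members and lists were chosen with earlier results of these data known. Named are all members and, per list, up to 4 genes with the smallest p; the falling targets, the markers named for their motif and Aqp4 fall outside this rule and were chosen after their values were seen. Chi-square per degree of freedom between libraries of a group was 9.36 to 25.1. On data simulated for this comparison (15074 genes), edgeR recovered 50% of 50 genes changed 1.5-fold and 66% of 47 changed 2-fold, with 6.79% false calls.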

Additional observations from a re-analysis of the deposited data

Results flagged for a closer look

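In the libraries labelled knockout, replicate 2 was highest for Tfap2b, at 266.5 CPM against 237.05 to 240.33 CPM in the other 3. Its gap to the neighbour was 0.8887 of the group's narrow range. Replicate 2 was also highest for the summed AP-2 level, at 289.3 CPM, with a gap of 0.8961 of the range. This sum is mostly Tfap2b, so both are 1 observation. Of 18 groups of 4 values examined (4 members, 4 ratios and the sum, in each group), these 2 were apart, and chance gives about 1 in 20. Without knockout 2, the log2 fold change of Tfap2b was 1.21 (edgeR adjusted p = 3.01e-05).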

How the results depend on the processing

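The direction of Tfap2b, Tfap2a and Kctd1 held in all 18 other settings, and so did that of the 5 library values in the settings run for each. Over all genes, 1817 passed, against 706 at a threshold of 0.01, 2850 at 0.10, 699 with the clock score as a term, 912 without knockout 1 and 4 together, and 1076 to 1940 with each library left out in turn (1076 without knockout 2 and 1176 without knockout 4). With library totals only, 76.5% of the called genes were higher in the knockout, against 52.2%. The number of members called, 3, was 1 with the clock score as a term. The AP-2 partners called, 2, were 4 with library totals only, 0 with the clock score, 1 without knockout 1 and 4, and 1 to 2 with each library left out. Other KCTD genes called, 0, were 1 with library totals only. Reported targets called, 10, were 5 with the clock score and 6 without knockout 1 and 4. The log2 fold change of Kctd15 ranged from -0.0297 to 0.20 with each library left out, and the log2 ratio of Tfap2a to Tfap2b from -0.52 to -0.24. The cause of these shifts was not tested.

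No pairing of the libraries by replicate number was seen: deviations of same-numbered libraries correlated at -0.215, -0.21, -0.0527 and 0.157. With 4 libraries per group, a pairing could go undetected. With a replicate block, 1094 genes passed, 1 AP-2 partner was called, 4 principal cell markers were called against 7, and Kctd1 had an edgeR adjusted p of 0.0587. For the ratios, 4 pairs cannot give an exact p below 0.125, and without knockout 1 and 4 none below 0.0667, so those values carry no test. Depth limits Tfap2c, Tfap2d and Tfap2e, whose levels lie at or under the floor.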
